A study of Mus musculus with 24 samples.

Results

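The 10 genes described here are *Atf4* and 9 genes known as outputs of the ATF4 protein in amino acid starvation, namely *Asns*, *Trib3*, *Ddit3*, *Chac1*, *Psat1*, *Phgdh*, *Shmt2*, *Slc7a11* and *Sesn2*. They were chosen by symbol and for their known role, with earlier results of these data known. Counts of members that passed are therefore a description of a set not fixed beforehand. Their 10 symbols match 11 of the 55487 gene rows in both deposited tables, because *Ddit3* is listed under a pair of Ensembl identifiers. Of the 10 genes, 9 had enough reads to be tested in each experiment, among 13239 tested genes in Exp1 and 13177 in Exp2. *Slc7a11* was not tested, since it had reads in few libraries.

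The study asked how RUNX factors and their partners CTCF and Mediator act in lymphoid progenitors (LPs) and in the earliest Notch-stimulated T progenitors (Phase1). All 24 libraries come from Cas9-LP cells, a mouse line from fetal liver progenitors that lack *Ebf1* and carry Cas9 at Rosa26, so the controls share the *Ebf1* deficiency and the Cas9 protein. The cells grew with SCF, Flt3L and IL-7 on mitomycin C-treated OP9 stroma (LP) or, for 2 days, on OP9-DLL4 stroma, which presents a Notch ligand (Phase1). A retrovirus with a human NGFR marker carried the sgRNA, pooled over several sgRNAs for each target and against luciferase in sgCont. Marked CD45+ cells were sorted 5 days after transduction, and the share of edited alleles in them was not measured here. Exp1 has LP sgCont, LP sgCbfb, Phase1 sgCont and Phase1 sgCbfb libraries. Exp2 has LP sgCont, sgCbfb, sgCTCF and sgMed12 libraries, with 3 replicates in each of the 8 groups. *Cbfb* encodes the subunit that RUNX proteins need for stable DNA binding, *Ctcf* an architectural DNA-binding protein, and *Med12* a subunit of the Mediator kinase module.

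Cells that run short of an amino acid accumulate uncharged tRNAs, which activate the kinase GCN2. GCN2 phosphorylates the translation factor eIF2alpha, which lowers most translation but raises that of the *Atf4* mRNA, so the ATF4 protein can change with little change in its mRNA. ATF4, together with C/EBP partners, then activates enzymes that make amino acids, transporters that import them and regulators such as CHOP and TRIB3 that feed back on the response. Endoplasmic reticulum stress, heme shortage and viral RNA reach the same factor through other kinases.

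ATF4 and C/EBP proteins bind a composite site, the C/EBP-ATF response element. It was searched as the letters TGATGNAA on both strands in RefSeq promoter windows of GRCm38.p6, from 250 bases before to 50 bases after each gene's start. The element occurred in 4 of the 11 windows of these genes, in 4 of the 10 genes, while 3.97% of 32851 windows hold it. The genes were chosen as known ATF4 outputs, so a higher share than over all windows is no finding of its own. The matches in these genes are printed below in the direction of the gene, because *Asns* leads the results that follow and the others show the same element in either direction. Capitals mark the match, and the 11 letters on each side show its surroundings.
Asns (chr6:7693214-7693243, minus strand): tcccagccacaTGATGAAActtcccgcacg
Chac1 (chr2:119351038-119351067, plus strand): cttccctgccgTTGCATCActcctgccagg
Trib3 (chr2:152344028-152344057, minus strand): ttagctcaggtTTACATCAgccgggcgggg
Slc7a11 first match (chr3:50443661-50443690, minus strand): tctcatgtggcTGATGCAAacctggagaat
Slc7a11 second match (chr3:50443642-50443671, minus strand): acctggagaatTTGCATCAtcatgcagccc

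The match in *Asns* begins 23 bases before the start of the RefSeq gene and reads in its direction, and it lies inside the GENCODE M21 gene, which begins further upstream. The one in *Chac1* lies 193 bases before the start and the one in *Trib3* begins 14 bases after it, both on the opposite strand. *Slc7a11* has a match on each strand, 66 and 47 bases before its start. The RUNX core TGTGGT was found in 1 of the 11 windows, that of *Shmt2*, 249 bases before its start, while 16.8% of all windows hold it. No gene held both the response element and the RUNX core, so their matches could not overlap. A core of the CTCF motif, searched in the same windows, was found in 0 of the 11 windows of these genes. Only 0.0609% of all windows hold it, so its absence from these genes cannot set them apart. Such letters are a description of the window, not evidence of binding.

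QuantSeq reads the 3′ end of each mRNA, and the values used here are CPM, a gene's reads scaled to a common total of reads on genes. The libraries of Exp1 hold 1363263 to 1743319 reads on genes and those of Exp2 3354483 to 4326782, so 3 reads, the limit that a count of 0 allows, stand for 1.72 to 2.2 CPM in Exp1 and 0.693 to 0.894 CPM in Exp2, counting error only. Mitochondrially encoded genes took 6.76% to 8.15% of the reads in 21 libraries and 13.7%, 8.44% and 11.2% in sgMed12 replicates 1, 2 and 3. *Cbfb* fell from 114 to 48.4 CPM in the sgCbfb LPs of Exp2 and *Ctcf* from 391 to 306 CPM in sgCTCF LPs, while *Med12* stood at 5.14 CPM in sgCont and 7.01 CPM in sgMed12 LPs. In Exp1 *Cbfb* fell from 86.5 to 40.2 CPM in LPs and had 66.5 CPM in sgCont and 53.9 CPM in sgCbfb Phase1 cells (adjusted P = 0.59). A 3′ tag does not check a Cas9 deletion elsewhere in the gene, so these values do not measure how many alleles were edited. The paper checked the deletions at the protein level, by immunoblots of LPs for CBFβ, CTCF and Med12 at an earlier day after transduction, and reports loss of CBFβ. The summed level of 8 myeloid markers was 663 to 732 CPM in sgCbfb against 28.2 to 32.2 CPM in sgCont LPs of Exp2. Whether this gain of myeloid mRNA takes part in any value of sgCbfb cells was not tested. The summed level of 12 OP9 stromal markers was 7.55 to 44.0 CPM in sgCont, 21.5 to 40.8 CPM in sgCTCF and 13.4 to 58.8 CPM in sgMed12 LPs, with *Col3a1*, *Dcn* and *Postn* at 0 in all of them, and its part in the results was not tested. Of 9 lymphoid progenitor markers all were detected in every group, but their levels differed. By adjusted P under 0.05 against sgCont LPs of Exp2, 3 were higher and 4 lower in sgCbfb, beside 6.91% and 5.57% of all genes. In sgCTCF 1 was higher and 3 lower (6.13% and 4.2%), and in sgMed12 0 and 2 (2.53% and 4.7%). The summed level of 5 B lineage markers was 197 to 228 CPM in sgCTCF and 244 to 315 CPM in sgCont LPs of Exp2. Whether these shifts take part in the results was not tested. In such bulk samples fewer cells with an mRNA and less mRNA per cell cannot be told apart.

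**Figure D1:**
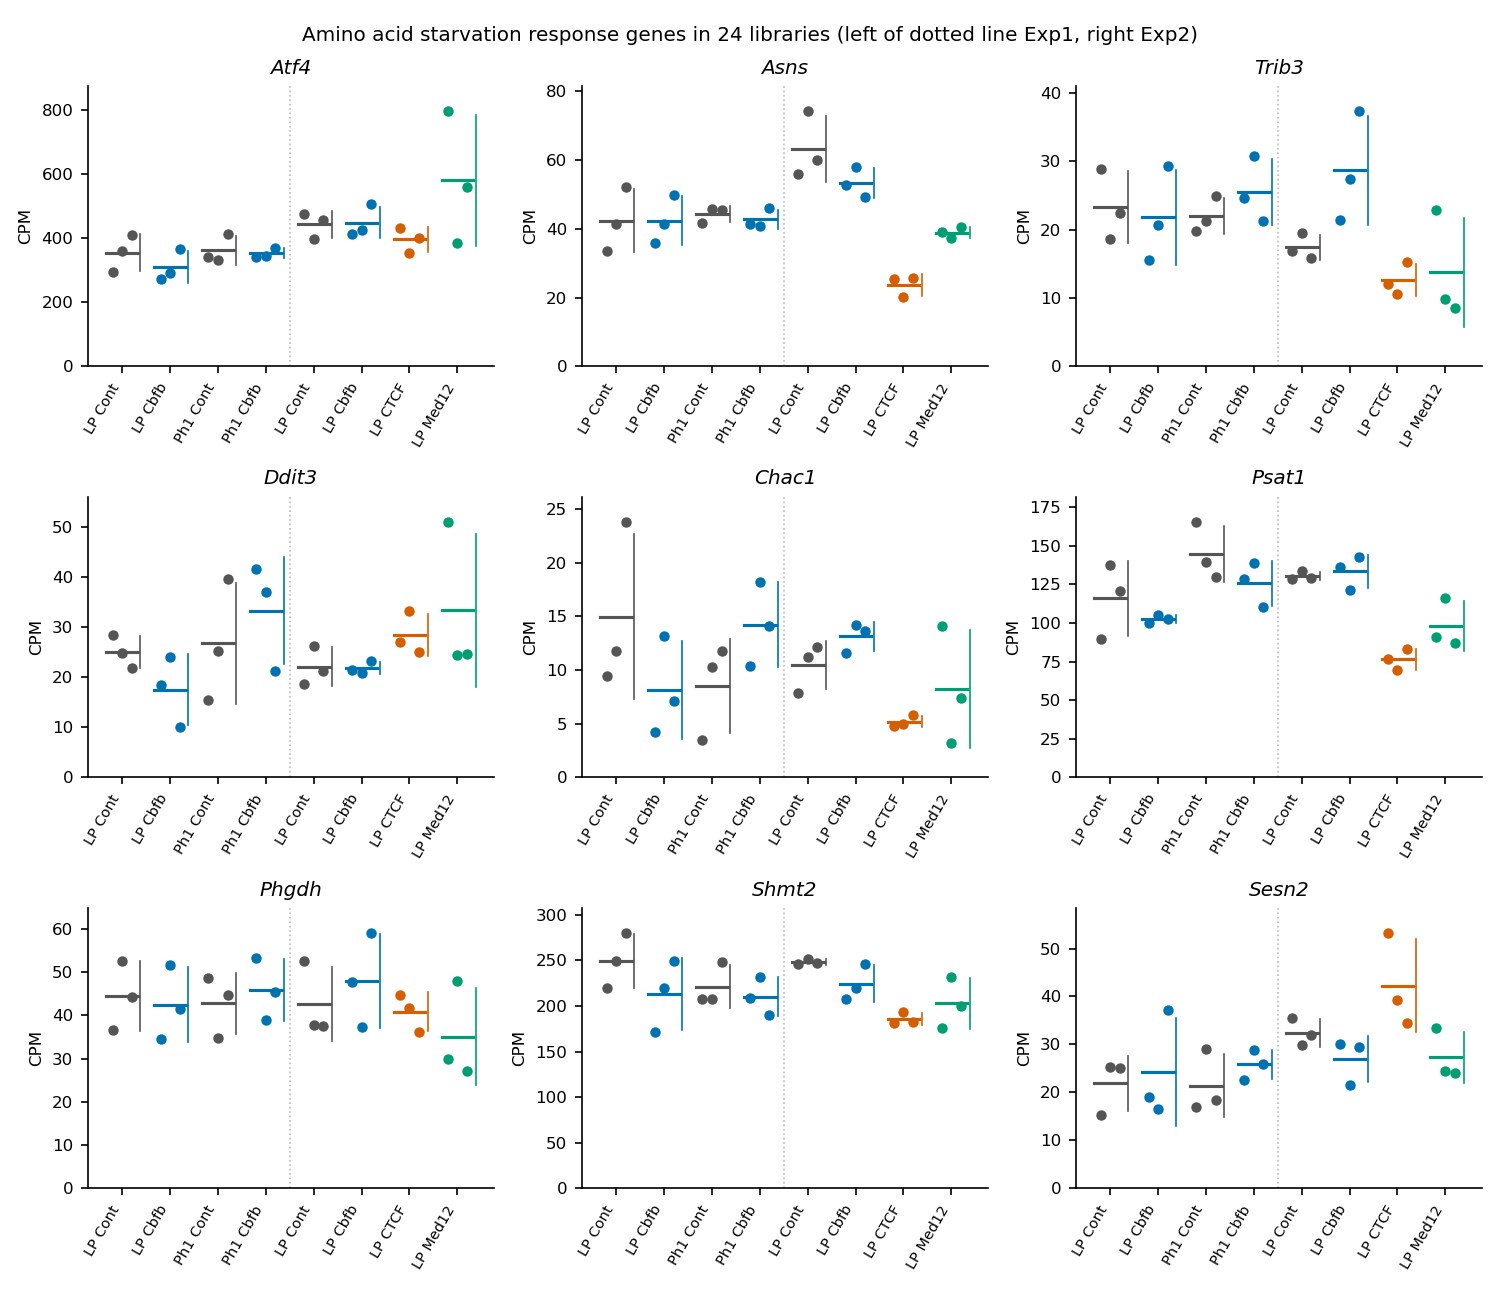
Each point is 1 library, the y axis of each panel is CPM from 0, the bar is the mean of the 3 replicates and the thin line its SD. Exp1 groups stand left of the dotted line and Exp2 groups right of it (Ph1, Phase1). *Asns*, *Psat1* and *Shmt2* lie lower in every sgCTCF than in every sgCont LP library, and sgMed12 replicate 1 stands high for *Atf4*, *Ddit3*, *Trib3* and *Chac1*.

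*Asns* (ENSMUSG00000029752, chr6:7675169-7693254, as all gene positions here from GENCODE M21 on GRCm38), asparagine synthetase, which makes asparagine from aspartate and glutamine, had the largest difference from sgCont of the 9 tested members in sgCTCF LPs. The sgCont LP libraries of Exp2 had 55.9, 74.1 and 59.9 CPM and the sgCTCF libraries 25.49, 20.05 and 25.65 CPM, or 72 to 111 reads. All 3 sgCTCF libraries lay below all 3 sgCont libraries, with means of 23.7 ± 3.19 against 63.3 ± 9.58 CPM (SD, n = 3), a level 2.67 times lower. The difference on the log2(CPM + 1) scale was -1.38 ± 0.15 (SE), with an adjusted P of 9.93e-07 in limma. *Asns* was the 1 member called in this comparison, where a call asks for an adjusted P under 0.05, a log2 ratio of the group means beyond 1 either way and, in either group, a mean above 10 CPM. Among all genes tested, 0.622% were called lower and 1.81% higher in sgCTCF than in sgCont LPs.

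*Psat1* (ENSMUSG00000024640, chr19:15904678-15947337), the phosphoserine aminotransferase of the second step of serine synthesis, had 129, 133 and 129 CPM in sgCont and 77.0, 69.6 and 83.0 CPM in sgCTCF LPs. The groups did not overlap, and the mean fell from 130.5 ± 2.61 to 76.5 ± 6.69 CPM (SD, n = 3), a difference of -0.77 ± 0.12 with an adjusted P of 1.11e-04. *Shmt2* (ENSMUSG00000025403, chr10:127517123-127522444), the mitochondrial enzyme that turns serine into glycine and a one-carbon unit, had 246, 251 and 247 CPM in sgCont and 181, 194 and 183 CPM in sgCTCF LPs. It also fell without overlap, by a smaller amount, with a difference of -0.41 ± 0.11 and an adjusted P of 0.0116, which was 0.057 without sgCTCF replicate 1. *Phgdh* (ENSMUSG00000053398, chr3:98313170-98339990), the dehydrogenase of the first step of serine synthesis, did not differ beyond its spread. Its values were 52.5, 37.8 and 37.5 CPM in sgCont and 44.8, 41.8 and 36.1 CPM in sgCTCF LPs, with an interval of -0.45 to 0.36 for the difference. This interval includes a fall as large as that of *Shmt2*. A processed pseudogene, *Phgdh-ps1*, could share reads with it.

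*Atf4* (ENSMUSG00000042406, chr15:80255184-80257541) itself had 476, 396 and 455 CPM in sgCont and 432, 355 and 400.1 CPM in sgCTCF LPs. The groups overlapped, and the difference of -0.16 ± 0.16 had an adjusted P of 0.62 and an interval of -0.49 to 0.17. An mRNA level says nothing of how much ATF4 protein was made. Thus *Asns*, *Psat1* and *Shmt2* were lower in sgCTCF LPs while the *Atf4* mRNA did not differ beyond its spread.

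Next come the genes that restrain or execute the response. *Chac1* (ENSMUSG00000027313, chr2:119351229-119354381), which degrades glutathione, had 7.91, 11.2 and 12.2 CPM in sgCont and 4.83, 5.01 and 5.78 CPM, or 18 to 25 reads, in sgCTCF LPs. All sgCTCF values lay below all sgCont values, but with a difference of -0.86 ± 0.33 the adjusted P was 0.106. It came under 0.05 with only the groups compared in the fit, at 0.040, and without sgMed12 replicate 1 or 2, whose spread enters the shared error. *Trib3* (ENSMUSG00000032715, chr2:152337422-152344032), a pseudokinase that binds ATF4 and limits it, had 16.9, 19.5 and 15.8 CPM in sgCont and 12.1, 10.6 and 15.3 CPM in sgCTCF LPs, again without overlap and with an adjusted P of 0.37.

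*Ddit3* (chr10:127290774-127296288), which encodes CHOP, a factor tied to cell death in stressed cells, stood at 18.7, 26.3 and 21.2 CPM in sgCont and 27.10, 33.14 and 24.96 CPM in sgCTCF LPs. The groups overlapped, with a difference of 0.35 ± 0.22. Exons of this gene overlap those of *Mars* on the opposite strand by 68 bases, and the strand setting of the counting is not given in the sources used here. The second *Ddit3* identifier, a 105-base gene inside the first, was at 0 in all 24 libraries. *Sesn2* (ENSMUSG00000028893, chr4:132492032-132510501), a leucine sensor that restrains mTORC1, had 35.6, 29.8 and 31.9 CPM in sgCont and 53.1, 39.3 and 34.4 CPM in sgCTCF LPs, with overlap and an adjusted P of 0.27.

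Of the 9 genes tested, 3 had an adjusted P under 0.05 in sgCTCF against sgCont LPs, all lower, where 4.2% of all genes were lower and 6.13% higher by this rule. The 5 genes without overlap between the groups were all lower in sgCTCF, where 15.1% of all genes were lower and 16% higher without overlap. The median difference of the 9 was -0.41, beside -0.02 over all genes. edgeR and DESeq2 on the recovered reads each gave 3 of the 9 an adjusted P under 0.05.

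In sgMed12 LPs *Asns* was also lower. Its values of 39.0, 37.2 and 40.6 CPM lay below the lowest sgCont library and above the highest sgCTCF library. The mean of 38.9 ± 1.70 CPM (SD, n = 3) was lower than in sgCont by 0.68 ± 0.15 on the log2(CPM + 1) scale, with an adjusted P of 0.0102. This P was 0.071 without sgCont replicate 2 and 0.11 with only the groups compared in the fit. *Asns* was higher in sgMed12 than in sgCTCF LPs, by 0.70 ± 0.15 with an adjusted P of 0.0019, which held in all 22 alternatives, so the 2 groups differed from each other as well as from sgCont.

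*Psat1* had 90.7, 117 and 86.9 CPM in sgMed12 LPs, all below the sgCont values. The difference from sgCont was -0.42 ± 0.12 with an adjusted P of 0.0355, and that P passed 0.05 in 11 of 22 alternatives, ranging up to 0.18 without sgMed12 replicate 3. *Shmt2* had 176, 232 and 200.4 CPM, also all lower than in sgCont, with an adjusted P of 0.085. No member was called in sgMed12 against sgCont LPs by limma, where 0.364% of all genes were called lower and 0.668% higher. By adjusted P alone 2 of the 9 were lower, beside 4.7% of all genes lower and 2.53% higher. At an unadjusted P under 0.05 there were 5, beside 9.67% of all genes higher and 13.7% lower, *Atf4* and *Ddit3* higher and *Asns*, *Psat1* and *Shmt2* lower, while 1 of the 9 had an adjusted P under 0.05 in edgeR and 1 in DESeq2.

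The sgMed12 libraries did not agree among themselves on the stress genes. *Atf4* had 794, 386 and 559 CPM, *Ddit3* 50.9, 24.4 and 24.7 CPM and *Trib3* 22.9, 9.88 and 8.52 CPM in replicates 1, 2 and 3. Replicate 1 was the highest of the 12 Exp2 libraries for *Atf4* and *Ddit3*, and its share of mitochondrially encoded reads was the highest of the series, 13.7%. The part of that share in these values was not tested. Over 11637 to 11921 genes, a comparison of reads gave a chi-square per degree of freedom of 16.0 between replicates 1 and 2. It was 8.73 between replicates 2 and 3 and 4.26 between 1 and 3, so replicate 2 stood furthest apart by this measure. Without replicate 1 the difference of *Atf4* from sgCont went from 0.33 to 0.07, that of *Ddit3* from 0.50 to 0.16, and that of *Trib3* from -0.44 to -0.85 (adjusted P = 0.069). Without replicate 2 *Atf4* was higher by 0.59 (adjusted P = 3.1e-04), *Ddit3* higher by 0.68 (adjusted P = 0.030), *Phgdh* lower with a difference of -0.54 (adjusted P = 0.029) and *Shmt2* lower with -0.40 (adjusted P = 0.0030). The *Chac1* values of 14.1, 3.20 and 7.38 CPM spanned those of the sgCont and sgCTCF groups, and *Phgdh* had 29.95, 47.95 and 27.25 CPM. *Sesn2* had 33.3, 24.4 and 24.1 CPM.

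**Figure D2:**
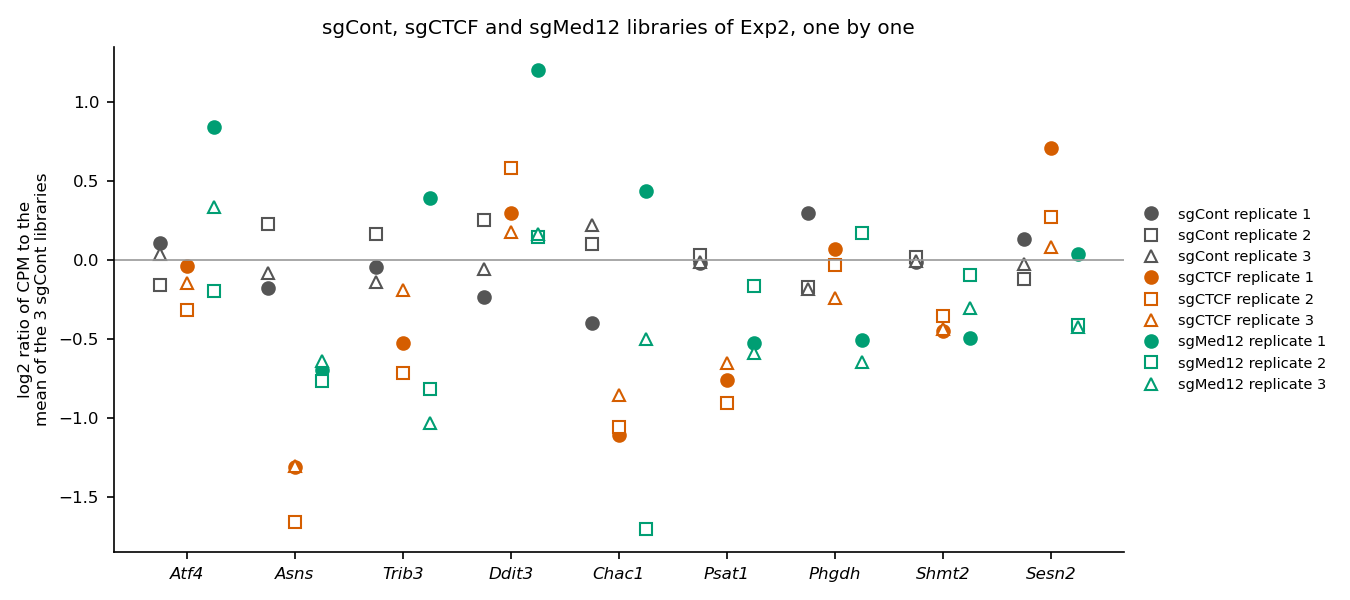
The y axis is the log2 ratio of a library's CPM to the mean of the 3 sgCont libraries of Exp2, with a marker shape for each replicate number. *Asns* lies below the sgCont libraries in all 6 sgCTCF and sgMed12 libraries, whereas *Atf4*, *Ddit3*, *Trib3* and *Chac1* of sgMed12 replicate 1 stand above the mean of sgCont.

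The sgCbfb LPs of Exp2 were near sgCont for most members. *Asns* had 52.8, 57.9 and 49.1 CPM, overlapping sgCont, with a difference of -0.24 ± 0.15 and an adjusted P of 0.37. *Psat1* had 136, 122 and 143 CPM, with an interval of -0.22 to 0.28 for the difference, and *Atf4* 414, 426 and 505 CPM, with an interval of -0.31 to 0.35. *Trib3* was the exception, with 21.5, 27.4 and 37.3 CPM, each above the highest sgCont library, but its difference of 0.66 ± 0.28 had an adjusted P of 0.13. That P was 0.050 with only the groups compared in the fit and 0.044 without sgMed12 replicate 1.

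No member was called in sgCbfb against sgCont LPs of Exp2 by limma, edgeR or DESeq2, where 2.67% of all genes were called higher and 1.65% lower by limma. *Trib3* alone had an unadjusted P under 0.05, which 12.5% of all genes had in the higher and 11.4% in the lower direction. It was also the only member without overlap, beside 15.5% of all genes higher and 15% lower without overlap. *Ddit3* had 21.5, 20.9 and 23.2 CPM, *Chac1* 11.6, 14.2 and 13.6 CPM, *Phgdh* 47.7, 37.3 and 58.9 CPM, *Shmt2* 207, 220.2 and 246 CPM and *Sesn2* 30.1, 21.5 and 29.5 CPM. None of these passed in limma, and the lowest adjusted P among them was 0.43, for *Sesn2*.

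The 3 targeted groups were also compared with each other, in the same fit and in part with the same libraries. Against sgCbfb LPs, 3 of the 9 genes were called lower in sgCTCF LPs, where 3.38% of all genes were called lower and 3.48% higher. These were *Asns*, with a difference of -1.14 ± 0.15 (adjusted P = 2.2e-06), *Trib3*, with -1.10 ± 0.28 (adjusted P = 0.0042), and *Chac1*, with -1.19 ± 0.33 (adjusted P = 0.0106). The *Trib3* call was lost without sgCbfb replicate 3, the library with 37.3 CPM, which left 2 called. *Psat1* was lower by 0.80 ± 0.12 (adjusted P = 1.8e-05), and *Sesn2* was higher by 0.62 ± 0.19 (adjusted P = 0.017), which became 0.145 without sgCTCF replicate 1 and 0.114 without sgCbfb replicate 2. By adjusted P alone 10.9% of all genes were lower and 11.5% higher in this comparison.

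Against sgCbfb LPs, *Trib3* was the 1 member called lower in sgMed12 LPs (2.72% of all genes lower and 1.76% higher), with a difference of -1.10 ± 0.28 and an adjusted P of 0.0061. The call depended on single libraries. It was lost without sgMed12 replicate 2, sgMed12 replicate 3 or sgCbfb replicate 3, leaving 0, and *Chac1* joined it without sgMed12 replicate 1, giving 2. By adjusted P alone, beside 9.77% of all genes lower and 7.03% higher, *Psat1* was lower with a difference of -0.45 ± 0.12 (adjusted P = 0.0104) and *Asns* with -0.44 ± 0.15 (adjusted P = 0.0447), which stayed under 0.05 in 5 of 22 alternatives.

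Between sgMed12 and sgCTCF LPs no member was called by limma, where 1.71% of all genes were called higher and 2.31% lower. An unadjusted P under 0.05 was held by 4 members, beside 14.8% of all genes higher and 18.2% lower. The adjusted P passed for 4 members in limma, beside 8.09% of all genes higher and 11.9% lower, for 4 in edgeR and for 3 in DESeq2. Beside *Asns*, *Atf4* was higher in sgMed12 by 0.49 ± 0.16 (adjusted P = 0.030, and 0.24 without sgMed12 replicate 1), *Psat1* higher by 0.34 ± 0.12 (adjusted P = 0.046, and 0.147 without sgMed12 replicate 2) and *Sesn2* lower with a difference of -0.61 ± 0.19 (adjusted P = 0.023, and 0.163 without sgCTCF replicate 1).

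**Figure D3:**
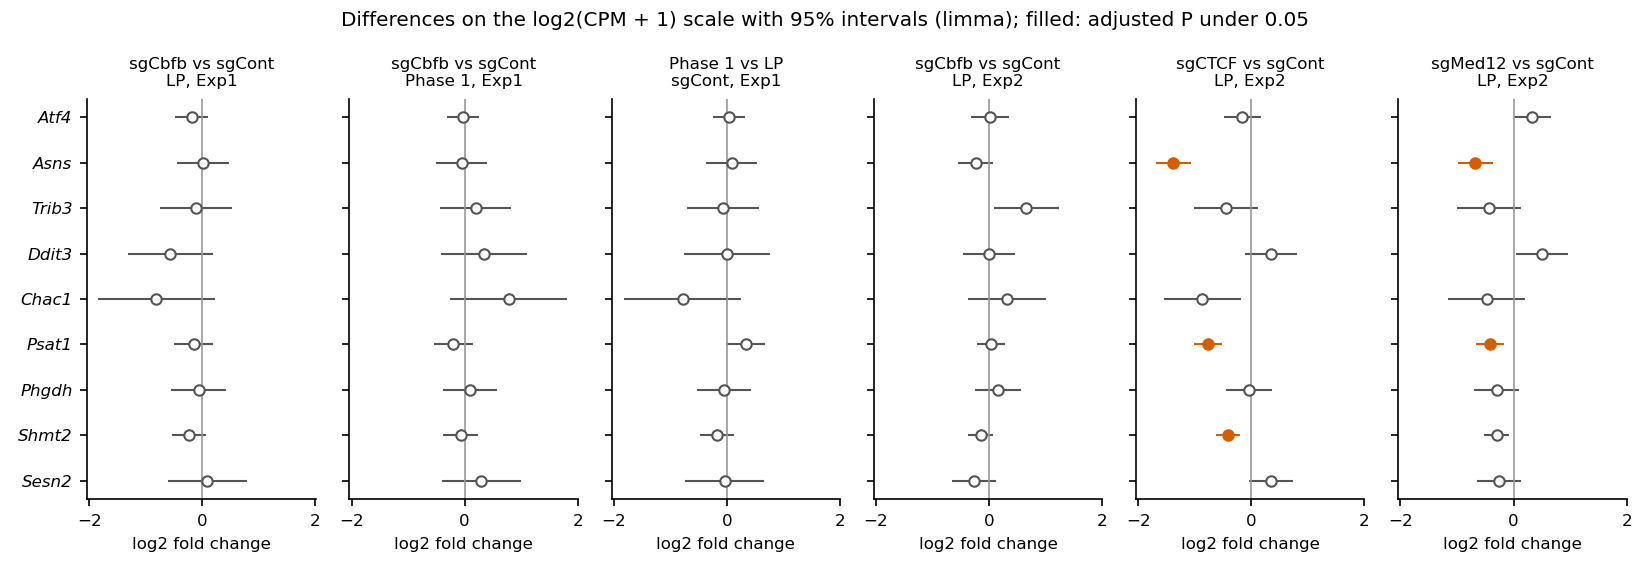
Each panel gives a comparison, with the difference of the 9 tested genes on the log2(CPM + 1) scale on the x axis, its 95% interval as a line and filled points where the adjusted P was under 0.05. Filled points occur for *Asns*, *Psat1* and *Shmt2* in sgCTCF and for *Asns* and *Psat1* in sgMed12 against sgCont LPs. The last 3 panels share the sgCont libraries of Exp2.

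In Exp1 neither Notch stimulation nor sgCbfb moved a member past the thresholds. *Asns* had 33.6, 41.5 and 52.0 CPM in sgCont LPs, 36.0, 41.3 and 50.0 CPM in sgCbfb LPs, 41.6, 45.8 and 45.5 CPM in sgCont Phase1 cells and 41.5, 40.8 and 46.0 CPM in sgCbfb Phase1 cells. The groups overlapped, and the interval of the sgCbfb difference was -0.45 to 0.47 in LPs and -0.51 to 0.40 in Phase1 cells. *Atf4* had means of 354 ± 57.2 CPM in sgCont LPs, 309.8 ± 50.1 CPM in sgCbfb LPs, 361 ± 44.9 CPM in sgCont Phase1 cells and 352 ± 15.7 CPM in sgCbfb Phase1 cells (SD, n = 3). No comparison between them passed, and the interval of the sgCbfb difference was -0.48 to 0.10 in LPs and -0.32 to 0.26 in Phase1 cells.

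The serine enzymes were as close. *Psat1* had means of 116 ± 24.2, 103 ± 2.41, 145 ± 18.3 and 126 ± 14.5 CPM in sgCont LPs, sgCbfb LPs, sgCont Phase1 cells and sgCbfb Phase1 cells (SD, n = 3). All sgCbfb Phase1 values of *Psat1* lay above all sgCbfb LP values, beside 9.19% of all genes, with an adjusted P of 0.54. In the same order *Phgdh* had 44.5 ± 8.02, 42.5 ± 8.59, 42.8 ± 7.14 and 45.8 ± 7.11 CPM, and *Shmt2* 249.7 ± 29.6, 213 ± 39.5, 221 ± 23.9 and 210.1 ± 21.1 CPM (SD, n = 3). None of the comparisons of these 3 genes had an unadjusted P under 0.05.

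The low genes were less well measured at the depth of Exp1. *Chac1* had 9.44, 11.8 and 23.8 CPM in sgCont LPs, 4.23, 13.2 and 7.14 CPM in sgCbfb LPs, 3.53, 10.3 and 11.7 CPM in sgCont Phase1 cells and 10.4, 18.2 and 14.1 CPM in sgCbfb Phase1 cells. Every group overlapped both groups it was compared with, and the widest intervals of the 9 genes were those of *Chac1*, from -1.85 to 0.22 for sgCbfb in LPs and from -0.26 to 1.82 in Phase1 cells. *Ddit3* had 18.3, 24.1 and 9.99 CPM in sgCbfb LPs and 41.5, 37.1 and 21.2 CPM in sgCbfb Phase1 cells, against 28.3, 24.8 and 21.8 CPM and 15.5, 25.2 and 39.6 CPM in sgCont LPs and Phase1 cells. *Trib3* means ranged from 21.8 to 25.5 CPM and *Sesn2* means from 21.4 to 25.8 CPM over the 4 groups.

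By limma, edgeR and DESeq2, 0 of the 9 genes were called in any of the 5 comparisons of Exp1. By limma, 1.1% of all genes were called higher and 0.597% lower for sgCbfb in LPs, 1.96% and 1.56% for sgCbfb in Phase1 cells, 1.65% and 1.74% for Phase1 against LP in sgCont cells, 0.74% and 0.453% for Phase1 against LP in sgCbfb cells, and 0.589% and 0.597% for the interaction of stage and sgCbfb. An unadjusted P under 0.05 was reached by *Ddit3* in Phase1 against LP sgCbfb cells (0.92 ± 0.36, adjusted P = 0.28) and by *Chac1* in the interaction (1.60 ± 0.71, adjusted P = 0.42), and by 0 members in the other 3. Over all genes the shares at that level, higher and lower, were 5.88% and 6.18%, then 5.54% and 4.77%, for these comparisons, 6.47% and 5.36% for sgCbfb in LPs, 10.8% and 7% for sgCbfb in Phase1 cells, and 8.2% and 11.6% for Phase1 against LP in sgCont cells. Myeloid markers summed to 424 to 510 CPM in sgCbfb and 32.1 to 53.1 CPM in sgCont LPs of Exp1, while T lineage and Notch target genes summed to 1736 to 2051 CPM in sgCont Phase1 cells and 321 to 468 CPM in sgCont LPs. No member was called between these groups, in which the markers did not overlap.

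*Slc7a11* (ENSMUSG00000027737, chr3:49892526-50443614), the cystine importer of system xc-, was at 0 in 21 of 24 libraries. It had 6 reads in sgCont Phase1 replicate 2 (3.87 CPM), 11 reads in sgCbfb Phase1 replicate 3 (6.48 CPM) and 2 reads in sgCbfb LP replicate 1 of Exp2 (0.596 CPM). The other Phase1 libraries were at 0, which allows a level up to the limit of 3 reads and does not show absence. This gene has a pair of response elements in the window before its start, printed above.

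The level of the other genes of the pathway was followed through lists chosen for their known roles, also with earlier results of these data known. GCN2 itself (*Eif2ak4*) had 34.0 ± 7.11 CPM in sgCont and 28.3 ± 1.24 CPM in sgCTCF LPs (SD, n = 3), with an adjusted P of 0.46. Among 9 genes of eIF2alpha phosphorylation, its kinases, their regulators and phosphatase subunits, the kinase of endoplasmic reticulum stress PERK (*Eif2ak3*) rose from 19.2 to 46.1 CPM in sgCTCF LPs (1.21 ± 0.19, adjusted P = 8.5e-05), and the double-stranded RNA kinase PKR (*Eif2ak2*) rose from 28.5 to 78.6 CPM in sgCbfb LPs of Exp2 (1.40 ± 0.17, adjusted P = 6.8e-07). In sgMed12 LPs 0 of the 9 passed by limma, edgeR or DESeq2, beside 2.53% of all genes higher and 4.7% lower by adjusted P in limma. An unadjusted P under 0.05 was reached by 0 of the 9, beside 9.67% of all genes higher and 13.7% lower. Of 14 endoplasmic reticulum chaperones and XBP1 or ATF6 targets, 0 passed in sgCTCF LPs by limma, edgeR or DESeq2, beside 6.13% of all genes higher and 4.2% lower by adjusted P in limma. At an unadjusted P under 0.05 there were 3 of the 14, beside 12.2% of all genes higher and 10.6% lower. *Xbp1* rose in sgMed12 LPs, where the number that fell went from 0 to 8 without sgMed12 replicate 2. In sgCbfb LPs of Exp2 6 fell and *Xbp1* rose, where 5.57% of all genes were lower and 6.91% higher by adjusted P. In sgCbfb LPs of Exp1 4 of the 14 fell, beside 1.09% of all genes, and the list's median difference was -0.66.

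Single genes of amino acid synthesis, transport and tRNA charging fell in sgCTCF LPs, where 4.2% of all genes were lower by adjusted P and 0.622% were called lower. Among 12 other enzymes of amino acid synthesis, 3 were called lower, the proline enzyme *Pycr1* (27.7 to 13.7 CPM), the alanine transaminase *Gpt2* (12.8 to 4.79 CPM) and the branched-chain transaminase *Bcat1* (21.8 to 8.94 CPM), and the list's median difference was -0.30. Among 10 other serine, glycine and one-carbon enzymes, 2 fell, *Mthfd2* (172 to 107 CPM, adjusted P = 1.5e-04) and the thymidylate synthase *Tyms* (42.0 to 27.5 CPM), and all 10 differences were negative, with a median of -0.39. Of 11 amino acid transporters 4 fell, the large neutral transporters *Slc43a1* (10.4 to 4.81 CPM, called) and *Slc7a5* (136 to 87.1 CPM) with *Slc1a4* and *Slc7a1*, and all 11 differences were negative, with a median of -0.36. Of 21 genes for tRNA charging and export 8 fell, among them *Gars* (162 to 114 CPM) and *Nars* (348 to 260.4 CPM). Of their differences 20 were negative and the median was -0.25. Over all genes the median difference was -0.02. The genes of a list were read in the same libraries, so their signs are not independent of each other.

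These counts depended on single libraries to different degrees, with each library of Exp2 left out in turn, a check added after seeing the data. The 8 tRNA genes became 6 to 10, the 4 transporters 1 to 6 and the 3 synthesis enzymes 1 to 3. The transporters came to 1 without sgCont replicate 1, sgCont replicate 3 or sgCTCF replicate 1, and the synthesis enzymes to 1 without sgCont replicate 1. The 2 serine and one-carbon enzymes became 1 to 3, with 1 without sgCont replicate 3 or sgCTCF replicate 2.

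In sgMed12 LPs 4 of the 21 tRNA genes fell, namely *Kars*, *Lars*, *Nars* and *Sars*, where 4.7% of all genes were lower by adjusted P, and the median difference was -0.22. This count was 1 without sgCont replicate 1 or 3 or sgMed12 replicate 1 or 3, 2 without any of 5 other libraries and 11 without sgMed12 replicate 2, and it was 1 in edgeR and 2 in DESeq2. *Mthfd2* fell from 172 to 125 CPM, and of the transporters *Slc1a4* and *Slc3a2* fell, whereas 0 of the 12 synthesis enzymes passed by limma, edgeR or DESeq2. At an unadjusted P under 0.05 there was 1 of the 12, beside 9.67% of all genes higher and 13.7% lower. The 2 transporters came to 0 without any of the sgCont replicates or sgMed12 replicate 1 or 3. The 1 serine and one-carbon enzyme, *Mthfd2*, came to 0 without sgCont replicate 1 or 3 or sgMed12 replicate 1 or 3, and the count to 3 without sgMed12 replicate 2. In sgCbfb LPs of Exp2 the same lists held 2 genes that passed, beside 6.91% of all genes higher and 5.57% lower by adjusted P. These were *Gars*, which rose from 162 to 200.4 CPM, and *Slc38a2*, which fell from 480.4 to 379 CPM by limma (adjusted P = 0.039) but not by edgeR (0.055) or DESeq2 (0.050). Each of these 2 counts came to 0 without any single sgCont library or without sgCbfb replicate 1 or 2.

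**Figure D4:**
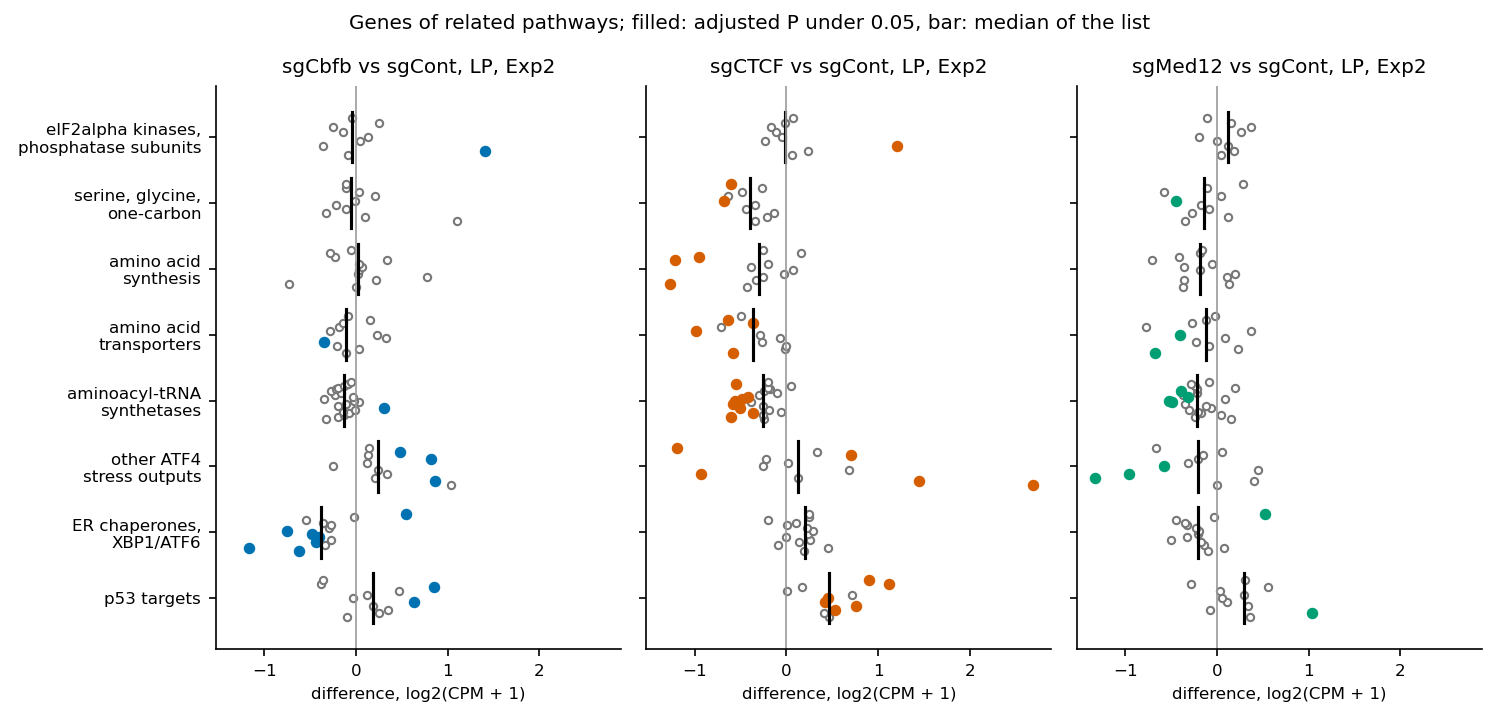
Each point is a gene of 1 of 8 lists, the x axis is its difference from sgCont LPs of Exp2 on the log2(CPM + 1) scale, filled points have an adjusted P under 0.05 and the bar is the median of the list. In sgCTCF LPs the medians of the 4 lists of amino acid synthesis, one-carbon enzymes, transporters and tRNA charging lie between -0.39 and -0.25, and the 3 panels share the sgCont libraries.

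A list of other ATF4 stress outputs and mTORC1 regulators moved both ways. In sgCTCF LPs, beside 4.2% of all genes lower and 6.13% higher by adjusted P, 2 of 11 fell, the translation inhibitor *Eif4ebp1* (88.6 to 46.1 CPM, adjusted P = 4.5e-04) and the secreted stanniocalcin *Stc2* (11.3 to 4.41 CPM, called), and 3 rose. The 2 became 1 without sgCont replicate 2 or sgCTCF replicate 2 or 3, and the 3 became 2 to 4 without single libraries. Those that rose were the arginine sensors *Castor1* and *Castor2* and the sestrin *Sesn3*, all known as restraints on mTORC1. *Castor2* rose from 6.78 to 19.7 CPM and was called. *Castor1* had at most 1 read in each sgCont library and 5.63, 5.29 and 7.39 CPM in sgCTCF, at least 7.61-fold above the mean limit of 3 reads in the sgCont libraries. In sgCbfb LPs of Exp2 3 of the 11 rose and 0 fell, beside 6.91% of all genes higher and 5.57% lower by adjusted P. That count of 3 became 1 to 4 without single libraries.

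In sgMed12 LPs 3 genes of this list fell and 0 rose, beside 4.7% of all genes lower and 2.53% higher by adjusted P. The count of 3 became 2 to 4 without single libraries. *Eif4ebp1* was at 45.9 CPM in sgMed12 LPs, down from 88.6 CPM (adjusted P = 0.0018). *Ddit4*, an mTORC1 inhibitor induced by several stresses, had 69.4, 87.7 and 81.1 CPM in sgCont and 26.3, 36.3 and 30.7 CPM in sgMed12 LPs, without overlap, and was called lower with a difference of -1.33 ± 0.14 (adjusted P = 1.7e-05). The bZIP factor *Nfil3* was called lower as well, from 17.3 to 7.63 CPM, where 0.364% of all genes were called lower. Its list of other stress bZIP factors held 1 gene lower by adjusted P, and this count was 0 to 1 without single libraries. In Exp1 *Ddit4* rose in sgCbfb Phase1 cells, with 198, 155 and 171 CPM against 67.8, 76.8 and 57.9 CPM in sgCont Phase1 cells (1.36 ± 0.22, adjusted P = 2.8e-04), and the interaction of stage and sgCbfb was 1.26 ± 0.31 (adjusted P = 0.046). *Sesn1* was called higher in the same cells, from 19.6 to 43.1 CPM, where 1.96% of all genes were called higher.

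A set of 11 p53 targets was followed beside them, since *Sesn2* also answers to p53. In sgCTCF LPs 6 of the 11 rose, with *Trp53inp1* called (52.5 to 112 CPM), where 6.13% of all genes were higher by adjusted P. All 11 differences were positive and the median was 0.47, beside -0.02 over all genes. These signs come from the same libraries and are not independent of each other. The 6 became 3 without sgCont replicate 2, sgCont replicate 3 or sgCTCF replicate 1. *Sesn2*, with its adjusted P of 0.27, did not pass there. In sgCbfb LPs of Exp2 2 of the 11 rose and 0 fell, beside 6.91% of all genes higher and 5.57% lower, and 1 to 2 rose without single libraries. The summed level of the 12 listed p53 targets, tested or not, was 677 to 820 CPM in sgCont and 865 to 1057 CPM in sgCbfb LPs of Exp2. It was 918 to 1243 CPM in sgCTCF and 812 to 850 CPM in sgMed12 LPs. In sgMed12 LPs 1 of the 11 rose, *Bax* (40.7 to 86.3 CPM), beside 2.53% of all genes higher by adjusted P, and the count was 0 without sgCont replicate 2 or sgMed12 replicate 3.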

How the data were processed

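QuantSeq reads were trimmed (fastp) and aligned to mm10 (STAR) by the authors, who deposited 1 value per gene and library under the name TPM. Tool versions and the counting step are not given in the sources used here. The deposited values are whole multiples of 1 step per library, long and short genes alike, and are thus CPM. Whole reads were recovered for 100% of them (tolerance 0.05 reads). A line without a gene was left out, and 55141 of 55487 identifiers are in GENCODE M21 (GRCm38).

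Each gene that reached 1 CPM in 3 or more libraries of an experiment was tested on log2(CPM + 1) with limma 3.58.1 in R 4.3.3, all 4 groups in one fit, with a variance trend and Benjamini-Hochberg adjustment over all genes tested. Fold changes on this scale understate those of low genes. Calls used the study's thresholds, an adjusted P under 0.05, a log2 ratio of means beyond 1 and, in either group, a mean above 10 CPM (in any group and with no ratio for the interaction). With TMM scaling and its quasi-likelihood test, edgeR 4.0.16 called 245 genes higher and 83 lower from the recovered reads, and limma 238 and 82, for sgCTCF against sgCont. DESeq2 1.42.0, pseudocounts of 0.1 and 5, other filters and scalings and leaving out each library were alternatives. All tests are two-sided. Exact permutation of 3 against 3 libraries cannot go below P = 0.1.

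The scripts were tested on simulated data. Replicates were compared, and no pair differed by sampling noise alone. Same-numbered sgCbfb and sgCTCF libraries of Exp2 deviated together weakly (r = 0.100, 0.124 and 0.133). This is only a hint of pairing from the data, and the labels do not give it. A block on the replicate number left the members called between these groups as they were. The sources do not say whether replicates came from separate transductions, so P values measure the spread between libraries. The members and lists were chosen with earlier results of these data known. All members are named, and from each list up to 3 called genes in each direction, with other genes that passed chosen after their values were seen. Tables and motifs were handled with pandas 2.3.3 and numpy 2.4.6.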

Additional observations from a re-analysis of the deposited data

How the results depend on the processing

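The 99 member differences were recomputed under up to 22 alternatives, giving 2163 values, of which 2083 kept their direction where called and their side of an adjusted P of 0.05, 62 lost significance, 18 gained it and 0 reversed. Apart from these labels, the sign of the difference changed in 62 of the 2163 values. The count of called members stayed at 0 in all alternatives for the 5 comparisons of Exp1 and for sgCbfb against sgCont in Exp2 (0 to 0 without single libraries). For sgCTCF against sgCont LPs the count of 1 became 2 with only the groups compared in the fit, 3 by adjusted P alone and 1 to 2 without single libraries. For sgMed12 against sgCont it was 2 by adjusted P alone and 0 to 0 without single libraries. For sgCTCF against sgCbfb the count of 3 became 2 with only genes of a mean over 10 CPM tested, which leaves *Chac1* out, 5 by adjusted P alone and 2 to 3 without single libraries. For sgMed12 against sgCbfb the count of 1 became 0 with mitochondrial genes left out of the library total, 0 with only the groups compared, 3 by adjusted P alone and 0 to 2 without single libraries. For sgMed12 against sgCTCF the count of 0 became 4 by adjusted P alone and 0 to 1 without single libraries, with *Chac1* called without sgMed12 replicate 2. The cause of these changes was not tested. *Psat1* in sgMed12 against sgCont had an adjusted P of 0.057 without mitochondrial genes, 0.055 with median-of-ratios scaling, 0.066 in edgeR and 0.054 in DESeq2.

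Replicate numbers are shared by the groups. Same-numbered libraries deviated together with r from -0.0381 to 0.14 in 18 pairs of Exp1 and from -0.13 to 0.216 in 18 pairs of Exp2, and 10 and 12 of 18 correlated best with their own number, so over all groups the numbers were not taken to pair the libraries. Between sgCbfb and sgCTCF of Exp2 all 3 same-numbered pairs were over 0.1, and all 9 pairs among sgCont, sgCbfb and sgCTCF correlated best with their own number, a hint of a shared source in these groups. With the replicate number as a block the same members were called in 11 of 11 comparisons (1 for sgCTCF against sgCont), while *Asns* in sgMed12 against sgCbfb moved to an adjusted P of 0.051 and *Psat1* in sgMed12 against sgCTCF to 0.052.

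Depth limits the low genes. In Exp1 *Chac1* rested on 5 to 37 reads per library and *Slc7a11* on 0 to 11.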

Other observations

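The genes whose pattern over the libraries was most like the mean of the 9 tested members were *Rny3*, a Y RNA, *Gars* and *Yars*, which charge tRNAs with glycine and tyrosine, *Clybl*, a mitochondrial lyase, and *Nars*, which charges tRNAs with asparagine, among 7978 genes with a mean over 10 CPM in both experiments. The likeness is Pearson's r of log2(CPM + 1) over the 12 libraries of an experiment, which share groups and depth, and is a description. It was 0.80 in Exp1 and 0.72 in Exp2 for *Rny3*, 0.76 and 0.75 for *Gars*, 0.71 and 0.80 for *Clybl*, 0.62 and 0.86 for *Yars* and 0.53 and 0.87 for *Nars*.

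Among the members, each of which is part of that mean, *Chac1* (0.71 and 0.80) and *Asns* (0.72 and 0.74) lay near it in both experiments. *Ddit3* (0.32 and -0.09) and *Sesn2* (0.51 and -0.12) did not in Exp2. *Atf4* itself had 0.86 in Exp1 and 0.39 in Exp2.

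In Phase1 against LP sgCont cells the quinone reductase *Nqo1*, an NRF2 target, was called higher, with at most 1 read in each LP library and 14.8, 9.03 and 8.07 CPM in Phase1, at least 5.75-fold above the mean limit of 3 reads.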
